A study of Mus musculus with 32 samples.

Results

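The 9 genes described here mark primitive red cells, the first erythroid cells of the mouse embryo. They are the alpha-like globin genes Hba-x, Hba-a1 and Hba-a2, the beta-like globin genes Hbb-bh1, Hbb-y and Hbb-bt, and the erythroid genes Alas2, Gata1 and Hemgn. They were chosen by name as red cell genes and matched by Ensembl identifier to the deposited gene tables, where all 9 were found among 48576 identifiers. Their levels describe the red cell RNA in each dissected piece of brain, and their ratios the proportions of its globin RNAs.

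The study sequenced RNA from the forebrain (Fb) and midbrain (Mb) of B6C3F1 mouse embryos at embryonic day 9.5, in 32 libraries. Each tissue was represented by 6 WT, 4 TKO_Ex, 3 DKO_Ex and 3 DKO_CD libraries. TKO_Ex embryos lacked the type II cadherins Cdh6, Cdh8 and Cdh11 and, according to the paper, had exencephaly, an open cranial neural tube. DKO_Ex embryos lacked Cdh8 and Cdh11 and had exencephaly. DKO_CD embryos had a cranial defect without exencephaly, and the labels call them Cdh6 and Cdh8 knockouts whereas the paper calls them Cdh8 and Cdh11 knockouts. All mutant alleles were small deletions around the start codon and descended from a single founder carrying deletions in all 3 genes. WT embryos came from WT matings and mutants from matings of triple heterozygotes. For 12 DKO files the heading inside the file and the sample record disagree on which DKO group it is, and the headings were followed. Neither the labels nor the paper says whether a library is 1 embryo or a pool, so a p-value measures the spread between these libraries, which may be partly technical.

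Primitive red cells arise in the blood islands of the yolk sac and enter the embryonic circulation when the heart starts to beat, while they are still nucleated and dividing. Each haemoglobin molecule joins alpha-like with beta-like chains, and as primitive red cells mature the early genes Hba-x and Hbb-bh1 give way to the adult alpha genes and to Hbb-y. The adult beta genes Hbb-bt and Hbb-bs are expressed chiefly in the definitive lineage, most of which is made later in the fetal liver. Which cells carried their RNA here was not tested. Neither brain tissue is known to make red cells. Globin RNA in a dissection is therefore taken here to come from blood left in its vessels or on its surface, which was not tested.

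The alpha-like genes lie together on chromosome 11 of GRCm38, Hba-x at 32276400 to 32278116, Hba-a1 at 32283511 to 32284465 and Hba-a2 at 32296489 to 32297298, all on the forward strand. The beta-like genes lie on the reverse strand of chromosome 7, Hbb-bt at 103812524 to 103813996, Hbb-bh1 at 103841637 to 103843164 and Hbb-y at 103851749 to 103853216. Alas2 is at X:150547375 to 150570638, Gata1 at X:7959260 to 7978071 and Hemgn on chromosome 4 at 46393989 to 46413506. All 9 are annotated as protein coding genes.

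The bases just before the start site are shown for an adult alpha gene, for the most abundant beta-like gene and for the haem synthesis gene. The sequences are from RefSeq on GRCm38.p6, 5′ to 3′ on the strand of the gene, and they were cut where the annotated gene begins. Capitals mark the motifs searched on both strands of the 120 bases before the start, each read in either orientation. They were the GATA site, spelled GATAA and bound by Gata1 and its relatives. They were also the CACC box, spelled CACCC and bound by Klf factors. The others were the CCAAT box and the TATA box, the last spelled TATAA.
Hba-a2, chr11:32296372-32296488, forward strand: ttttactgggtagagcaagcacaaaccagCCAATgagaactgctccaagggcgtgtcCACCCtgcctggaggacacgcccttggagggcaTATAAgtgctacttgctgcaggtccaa
Hbb-y, chr7:103853217-103853327, reverse strand: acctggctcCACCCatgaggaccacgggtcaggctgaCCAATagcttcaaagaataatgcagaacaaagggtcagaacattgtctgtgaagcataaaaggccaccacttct
Alas2, chrX:150547297-150547374, forward strand: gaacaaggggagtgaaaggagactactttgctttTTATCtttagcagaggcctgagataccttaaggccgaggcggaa
Thus Hba-a2 shows a CCAAT box, a CACC box and a TATA box, Hbb-y shows a CACC box and a CCAAT box, and the stretch of Alas2 shows a GATA site in reverse orientation. RefSeq promoters were found for 8 of the 9 genes, Hbb-bh1 being without an entry. In the 120 bases before the start, the CACC box was present in 7 of the 8, the TATA box in 5, the CCAAT box in 4 and the GATA site in 3. Among 32851 RefSeq promoters, windows of the same length held a CACC box in 31.7%, a CCAAT box in 21.3%, a TATA box in 11.8% and a GATA site in 10.5%. The CCAAT and TATA boxes can overlap their own reverse forms, and a match describes letters only.

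Levels are given in FPKM, fragments per kilobase of transcript scaled to the mapped fragments of the library, which is corrected for gene length and for depth. The depth estimated from the smallest steps between low values lay between 1.95 and 3.24 M fragments (median 2.615 M over the libraries). At that depth Hbb-y rested on 1503 to 16785 fragments per library (median 6764), whereas Gata1 rested on 2.24 to 41.2 (median 18.3), Hemgn on 3.29 to 96.2 (median 25.1) and Hbb-bt on 3.14 to 226 (median 16.1). En1, a midbrain marker, was below 3 FPKM in every Fb library. It was at 19.1 to 65.5 FPKM in all Mb libraries but WT Mb replicate 5, where it was at 3.57 FPKM. Of the targeted genes, Cdh6 was at 0.345 to 1.84 FPKM in the TKO_Ex libraries except both libraries of replicate 3 (3.74 and 3.10 FPKM), against 1.04 to 4.0 FPKM in WT. In DKO_CD, which the labels call a Cdh6 knockout, it was at 1.29 to 3.43 FPKM, and in DKO_Ex at 1.86 to 4.34 FPKM. A small deletion can leave RNA behind, so these levels check the genotype only in part.

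All 9 genes were detected in all 32 libraries. The embryonic globin genes were the most abundant, with Hbb-y between 786.9 and 9048 FPKM (median 4121), Hba-x between 791.7 and 6838 FPKM (median 3008) and Hbb-bh1 between 812.4 and 6217 FPKM (median 2687). The adult alpha genes were lower, with Hba-a1 between 256.2 and 2038 FPKM (median 1066) and Hba-a2 between 132.5 and 1429 FPKM (median 526.8). Hbb-bt, an adult beta gene, had a median of only 9.03 FPKM, although it reached 114.6 FPKM in a single library. Alas2, which encodes the erythroid enzyme for the first step of haem synthesis, had a median of 21.3 FPKM. Hemgn, a nuclear protein of haematopoietic cells, and Gata1, the master transcription factor of the red cell lineage, had medians of 4.31 and 3.93 FPKM.

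**Figure D1:**
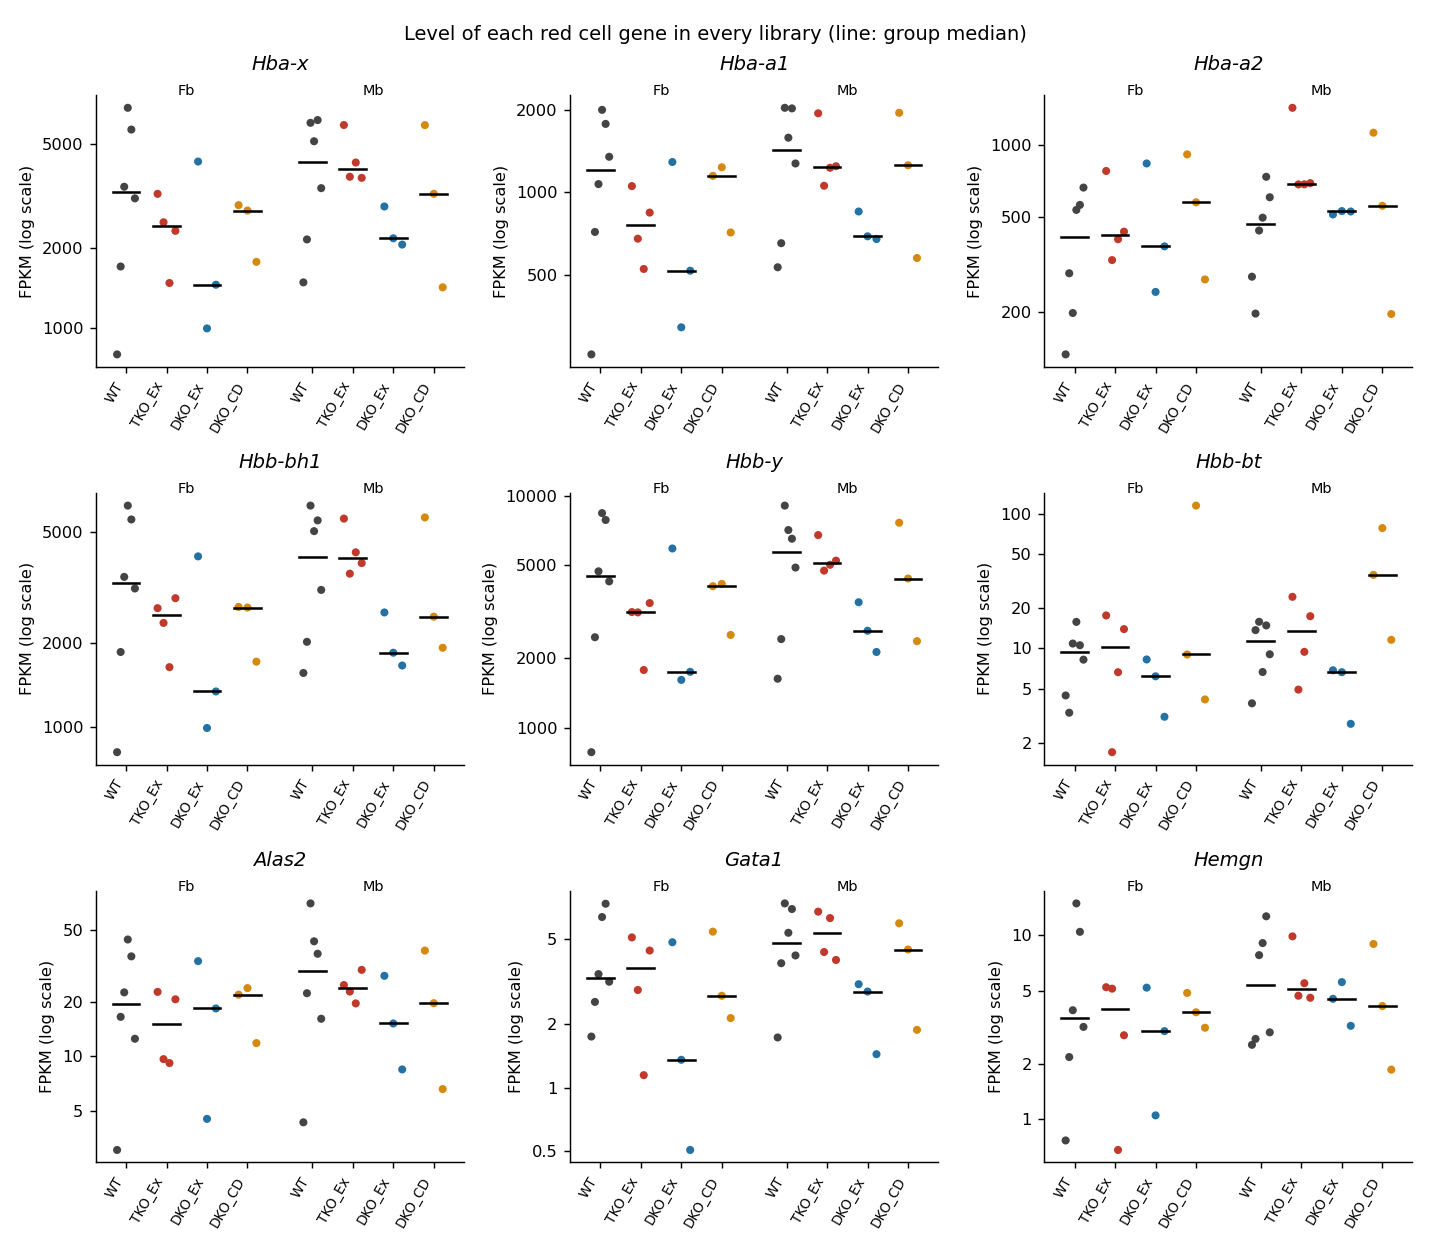
FPKM of the 9 red cell genes (vertical axes, log scale) in each library, by genotype and tissue, with a point per library and a line at the group median. Within most groups the libraries spread over several fold, and every mutant group overlaps the WT libraries of its tissue.

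The 6 globin genes together made up between 0.407% and 3.32% of all FPKM in a library, with a median of 1.67%. In WT Fb this share ran from 0.407% to 3.32% (median 1.72%) and in WT Mb from 0.723% to 3.14% (median 2.41%), so that the WT libraries alone spanned most of the range. In the bulk libraries fewer red cells and less globin RNA per red cell cannot be told apart.

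In TKO_Ex the globin share was 1.77%, 1.30%, 0.774% and 1.30% in Fb replicates 1 to 4 and 3.0%, 1.86%, 2.06% and 2.07% in the Mb libraries of the same numbers. In DKO_Ex it was 2.31%, 0.584% and 0.739% in Fb and 1.59%, 1.23% and 1.01% in Mb. In DKO_CD it was 1.64%, 1.44% and 1.0% in Fb and 3.19%, 1.69% and 0.915% in Mb. All these shares lay within the range of the WT libraries of the same tissue, except that of DKO_CD Mb replicate 1, which was just above it. Leaving the mitochondrially encoded genes out of the total moved the median share from 1.67% to 1.78%.

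The Mb library held the larger globin share in 13 of 16 comparisons with the Fb library of the same group and number. This was the case for 5 of 6 WT, 4 of 4 TKO_Ex, 2 of 3 DKO_Ex and 2 of 3 DKO_CD numbers. The share also depends on the summed FPKM of the library. By FPKM alone, Mb was above Fb for 11 of 16 numbers in Hbb-y and in Hbb-bh1 and for 13 in Hba-x. In WT it was above for 3, 3 and 5 of 6 numbers. The median share was 1.37% over the Fb libraries and 1.92% over the Mb libraries. These counts are given without a test, since the sources do not say that equal numbers mark the same embryo.

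**Figure D2:**
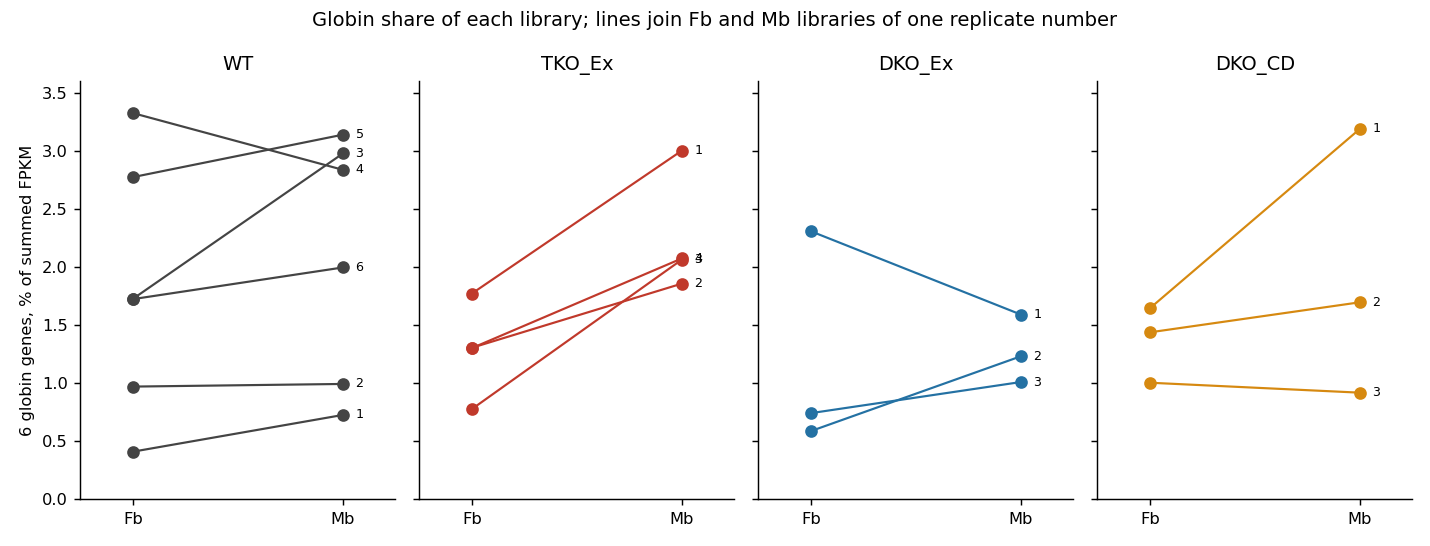
Share of the summed FPKM taken by the 6 globin genes (vertical axis, percent) in the Fb and Mb library of each group and replicate number, with lines joining equal numbers. The Mb point is the higher of the pair for 13 of 16 numbers, and the shares run from 0.407% to 3.32%.

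The level of Hbb-y in Fb went with that in the Mb library of the same number. Over 16 numbers Pearson's r of the log2 levels was 0.734 (permutation test, p = 0.00116, adjusted 0.00928) and Spearman's rho was 0.674 (permutation test, p = 0.00517, adjusted 0.0207). Without the 2 numbers farthest from the Fb median, r was 0.593 (permutation test, p = 0.0266, adjusted 0.0532) and rho was 0.552 (permutation test, p = 0.044, adjusted 0.0704). Within the 6 WT numbers r was 0.899 (exact permutation test, p = 0.0125, adjusted 0.0333) and rho was 0.829 (exact permutation test, p = 0.0583, adjusted 0.0777). Within the 10 mutant numbers r was 0.466 (permutation test, p = 0.173, adjusted 0.198) and rho was 0.442 (permutation test, p = 0.202, adjusted 0.202), so that the relation was not shown among the mutants alone. These are 8 coefficients in 1 family, over which the Benjamini-Hochberg adjustment was made. After it, the relation without the 2 farthest numbers no longer passed 0.05. An embryo, a litter or a day of dissection shared by equal numbers was not tested.

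Hbb-y, the embryonic beta-like gene that dominates in maturing primitive cells, ranged from 786.9 to 8400 FPKM in WT Fb (median 4496) and from 1629 to 9048 FPKM in WT Mb (median 5708). In TKO_Ex it was at 3152, 3142, 1776 and 3446 FPKM in Fb and at 6758, 4753, 5035 and 5246 FPKM in Mb. In the Mb, TKO_Ex replicate 1 was above the WT median and the other 3 libraries were below it, close to each other.

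In DKO_Ex, Hbb-y was at 5917, 1610 and 1744 FPKM in Fb and at 3475, 2620 and 2123 FPKM in Mb. In DKO_CD it was at 4074, 4168 and 2513 FPKM in Fb and at 7637, 4395 and 2363 FPKM in Mb. Replicate 1 was the highest DKO_Ex library in each tissue, and replicate 3 was the lowest DKO_CD library in each tissue. Every one of these values lay inside the range of WT in its tissue.

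Hbb-bh1, the early embryonic beta-like gene, was at 812.4 to 6217 FPKM in WT Fb (median 3294) and at 1562 to 6217 FPKM in WT Mb (median 4068). Over the mutant groups it was lowest in DKO_Ex Fb replicate 2, at 991.9 FPKM, and highest in DKO_CD Mb replicate 1, at 5639 FPKM. On the FPKM scale Hbb-y was above Hbb-bh1 in every library but WT Fb replicate 1, where Hbb-bh1 was at 812.4 and Hbb-y at 786.9 FPKM.

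Hba-x, the embryonic zeta-like alpha gene, was at 791.7 to 6838 FPKM in WT Fb (median 3263) and at 1486 to 6142 FPKM in WT Mb (median 4245). The TKO_Ex Mb libraries were at 5883, 3742, 4238 and 3706 FPKM and the DKO_Ex Mb libraries at 2885, 2185 and 2068 FPKM. The DKO_Ex Mb values were therefore in the lower part of the WT range and the TKO_Ex values in its middle and upper part, and these groups share the WT libraries as controls.

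Hba-a1 and Hba-a2, the adult alpha genes, encode nearly the same chain. Their transcripts, of 699 and 554 bases, share an identical stretch of 415 bases, which is longer than the 101 sequencing cycles, so reads from that stretch could be given to either gene and the separate values are uncertain. Hba-a1 was at 256.2 to 2003 FPKM in WT Fb (median 1212) and at 533.0 to 2038 FPKM in WT Mb (median 1431). Hba-a2 was at 132.5 to 662.1 FPKM in WT Fb (median 411.7) and at 196.4 to 734.6 FPKM in WT Mb (median 466.4).

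In the TKO_Ex Mb, Hba-a2 was at 1429, 682.7, 683.3 and 691.0 FPKM, of which only replicate 1 was above every WT Mb library. Its log2 fold change against WT Mb was 0.98 ± 0.36 (SE, 95% interval 0.20 to 1.76), with an unadjusted p of 0.0189 and an adjusted p of 0.50 in limma with Benjamini-Hochberg adjustment. Thus the difference did not pass the threshold over all genes.

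Alas2 was at 3.03 to 44.2 FPKM in WT Fb (median 19.5) and at 4.31 to 69.9 FPKM in WT Mb (median 29.6). Over the 20 mutant libraries it ran from 4.51 FPKM in DKO_Ex Fb replicate 2 to 38.4 FPKM in DKO_CD Mb replicate 1. Per 1000 FPKM of Hbb-y it amounted to 2.65 to 10.5 FPKM, with a median of 5.09.

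Gata1 was at 1.74 to 7.37 FPKM in WT Fb (median 3.29) and at 1.72 to 7.39 FPKM in WT Mb (median 4.79). Its lowest level, 0.507 FPKM in DKO_Ex Fb replicate 3, rests on only a few fragments. Hemgn was at 0.768 to 14.9 FPKM in WT Fb (median 3.54) and at 2.54 to 12.6 FPKM in WT Mb (median 5.37), and its lowest level was 0.681 FPKM in TKO_Ex Fb replicate 3. WT Fb replicate 1 held the lowest or next to lowest level of Alas2, Hemgn and all 3 embryonic globin genes, together with the smallest globin share.

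The comparison of WT Mb with WT Fb asks whether the 2 dissections carried the same amount of red cell RNA. None of the 9 genes passed an adjusted p of 0.05 in limma on log2(FPKM + 1), while 8.26% of the 13344 genes tested were called. At an unadjusted p under 0.05 there were 0 of 9, beside 20.9% of all genes. The log2 fold change of Hbb-y was 0.27 ± 0.57 (SE, 95% interval -0.95 to 1.5, adjusted p = 0.850, limma). All 9 fold changes were above 0, with a median of 0.27 beside -0.003 over all genes tested, and the WT groups overlapped for every gene. The interval of Hbb-y thus holds differences of more than 1 on the log2 scale in favour of Mb.

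In the Mb of TKO_Ex against WT, 0 of 9 genes were called (0.0898% of all genes tested), and 1 of 9, Hba-a2, had an unadjusted p under 0.05, beside 8.38% of all genes. The log2 fold change of Hbb-y was 0.27 ± 0.43 (SE, 95% interval -0.67 to 1.21, adjusted p = 0.918, limma), and the median over the 9 genes was 0.27 beside 0.02 over all genes. In the Mb of DKO_Ex, 0 of 9 were called (0.0903% of all genes), with 0 of 9 at an unadjusted p under 0.05, beside 5.46% of all genes. Hbb-y had a log2 fold change of -0.74 ± 0.50 (SE, 95% interval -1.84 to 0.36, adjusted p = 0.923, limma) and the 9 genes a median of -0.70 beside 0.03 over all genes. In the Mb of DKO_CD, 0 of 9 were called (0.0375% of all genes) and 1 of 9, Hbb-bt, had an unadjusted p under 0.05, beside 6.69% of all genes. For Hbb-y the log2 fold change there was -0.06 ± 0.55 (SE, 95% interval -1.29 to 1.17, adjusted p = 0.995, limma) and the median of the 9 genes was -0.20.

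In the Fb the members were likewise at 0 of 9 called in TKO_Ex (0.0603% of all genes), DKO_Ex (0.0759%) and DKO_CD (0.0378%), and no member had an unadjusted p under 0.05, beside 8.66%, 7.01% and 8.44% of all genes. Hbb-y had log2 fold changes of -0.41 ± 0.57 (95% interval -1.67 to 0.85, adjusted p = 0.882) in TKO_Ex, -0.54 ± 0.71 (-2.13 to 1.05, adjusted p = 0.919) in DKO_Ex and -0.08 ± 0.65 (-1.52 to 1.36, adjusted p = 0.986) in DKO_CD, all from limma and with the SE after the sign. The medians over the 9 genes were -0.30, -0.54 and -0.08. The 3 mutant groups of a tissue share its WT libraries, so these values are not independent of each other.

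Whether a mutant differed from WT by a different amount in Mb than in Fb was tested as an interaction. None of the 9 genes was called in TKO_Ex (0.0149% of all genes), DKO_Ex (0% of all genes) or DKO_CD (0.00746% of all genes). None had an unadjusted p under 0.05, beside 6.5%, 3.88% and 4.83% of all genes. In all 54 pairs of a gene and a mutant group the mutant libraries overlapped those of WT, beside 3.04% of pairs without overlap over all genes averaging 1 FPKM or more. At least 1 mutant library lay outside the WT range in 17 of the 54 pairs (31.5%), beside 62.0% of pairs over all genes. The intervals of Hbb-y reach past 1 on the log2 scale, in one direction or the other, for every mutant group. Without TKO_Ex replicate 3, whose Cdh6 level was like that of WT, the log2 fold change of Hbb-y in TKO_Ex was 0.30 in Mb (adjusted p = 0.926, limma) and -0.19 in Fb (adjusted p = 0.957, limma).

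**Figure D3:**
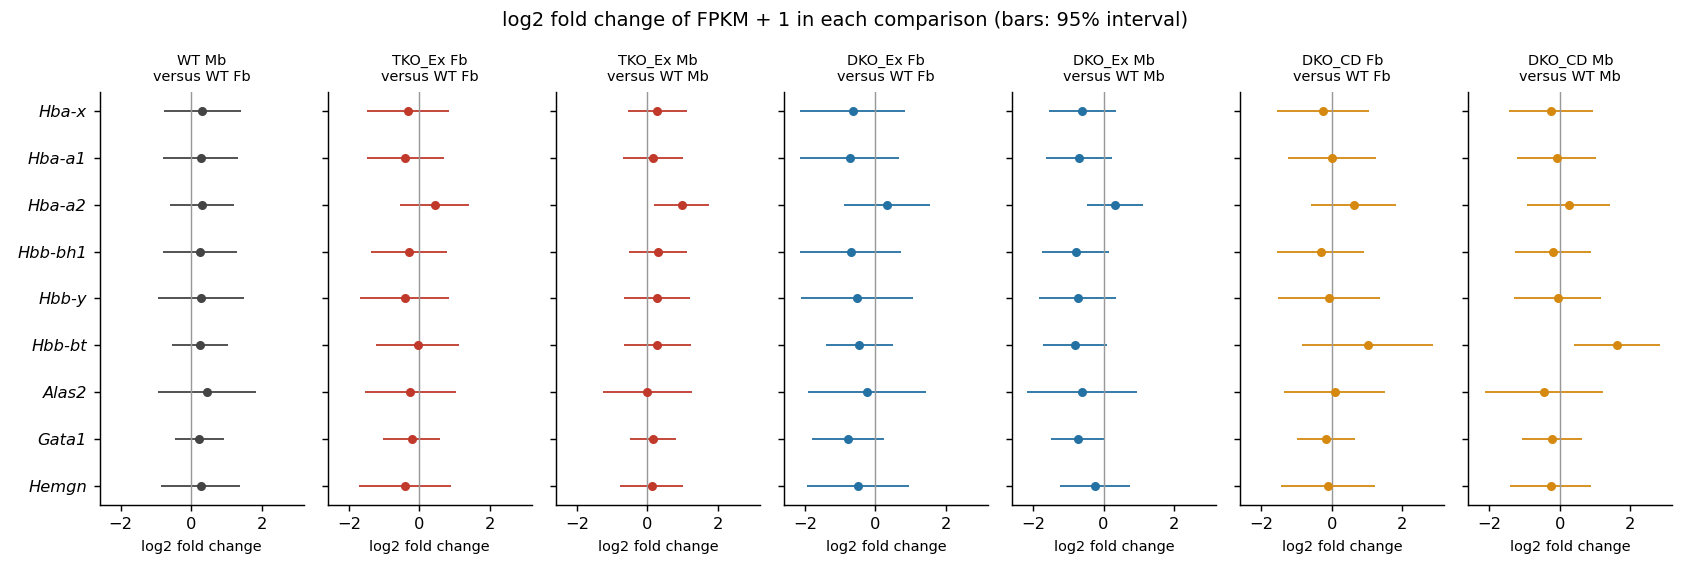
Log2 fold change (horizontal axis) of the 9 genes in the 7 comparisons, with 95% intervals from limma. Every interval crosses 0 except that of Hba-a2 in the TKO_Ex Mb and that of Hbb-bt in the DKO_CD Mb, neither of which passed after adjustment over all genes.

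Ratios between globin genes of the same library were taken next, because they do not change with the amount of blood when the genes scale together. The ratio of Hbb-y to Hbb-bh1 was 0.969 to 1.77 over the 32 libraries, with a median of 1.35. In WT it had a median of 1.36 in Fb and 1.30 in Mb, and the mean log2 ratio was higher in Mb by 0.01, a fold of 1.01 (two-sided exact permutation test, p = 0.926, adjusted p = 0.986). The ratio was below 1 in a single library, WT Fb replicate 1.

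In DKO_CD Fb the ratio of Hbb-y to Hbb-bh1 was 1.51, 1.56 and 1.47, so that 3 of 3 libraries were above every WT Fb library, of which the highest was at 1.42. The mean log2 ratio was higher by 0.23, a fold of 1.17 (two-sided exact permutation test, p = 0.0952, adjusted p = 0.571). The difference did not pass after adjustment over the 28 ratio tests. The smallest p that 3 against 6 libraries can give is 0.0119.

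The ratio of Hba-x to the summed adult alpha genes was 1.42 to 2.70, with a median of 1.84, and Hba-x made up 58.6% to 73.0% of the alpha-like FPKM. The WT median was 2.23 in Fb and 2.32 in Mb, a mean difference of 0.04 on the log2 scale (fold 1.03, two-sided exact permutation test, adjusted p = 0.986). In TKO_Ex the median was 1.79 in Fb and 2.03 in Mb, in DKO_Ex 1.76 and 1.79, and in DKO_CD 1.54 and 1.84. Every mutant median was below the WT median of its tissue, but 0 of 6 such tests had an unadjusted p under 0.05, and the groups share their WT libraries.

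The ratio of the alpha-like to the beta-like globin genes was 0.511 to 0.866, with a median of 0.662, the narrowest range of the 4 ratios. It was lowest in DKO_CD Mb replicate 3 and highest in TKO_Ex Fb replicate 1. The WT groups differed by 0.03 on the log2 scale (fold 1.02, two-sided exact permutation test, adjusted p = 0.986). Over the 28 ratio tests, 4 ratios in 7 comparisons, 0 had an adjusted p under 0.05 and 1 had an unadjusted p under 0.05.

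**Figure D4:**
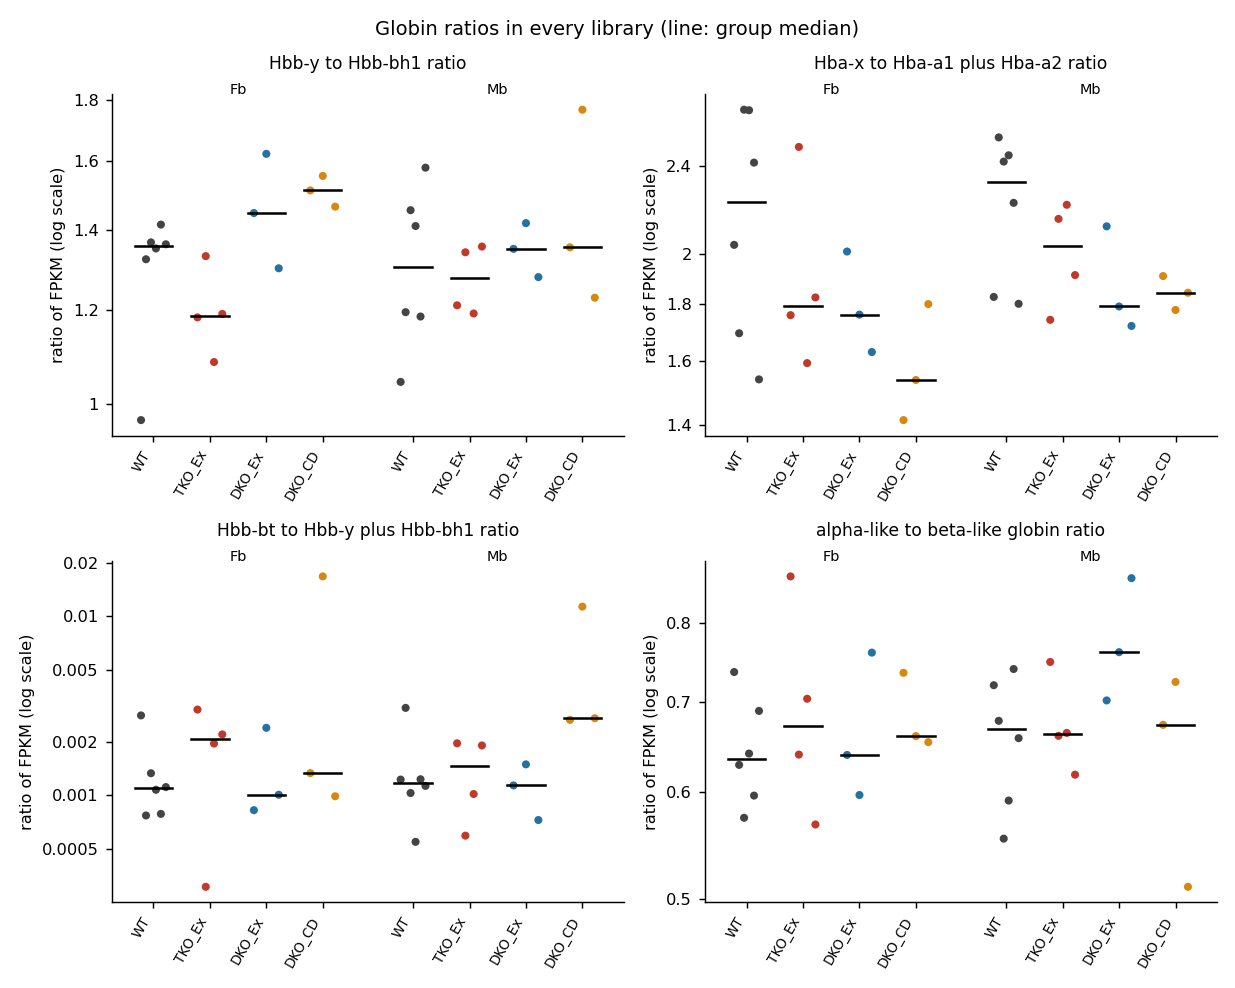
Ratios of FPKM between globin genes (vertical axes, log scale) in each library, by genotype and tissue, with a line at the group median. The ratio of Hbb-y to Hbb-bh1 stays between 0.969 and 1.77 while the ratio with Hbb-bt reaches 0.0167 in DKO_CD replicate 2.

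Hbb-bt was the member whose share varied most. It made up 0.0309% to 1.65% of the beta-like members, with a median of 0.123%. In DKO_CD it was at 9.02, 114.6 and 4.19 FPKM in Fb and at 35.1, 78.1 and 11.6 FPKM in Mb, whereas WT ran from 3.34 to 15.7 FPKM in Fb and from 3.92 to 15.8 FPKM in Mb. The Fb and Mb libraries of DKO_CD replicate 2 were thus the highest of all 32, and the other 30 libraries ran from 1.70 to 35.1 FPKM.

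The other adult beta gene, Hbb-bs, was also highest in DKO_CD replicate 2, at 439.1 FPKM in Fb and 258.7 FPKM in Mb, against 2.57 to 54.0 FPKM in the other 30 libraries. The transcripts of Hbb-bt and Hbb-bs share an identical stretch of 430 bases, so how the reads were divided between them is uncertain. The embryonic genes did not stand apart in the same libraries, with Hbb-y at 4168 and 4395 FPKM, near the median of 4121 FPKM over all libraries. Klf1, a transcription factor that activates adult beta globin, was at 2.44 FPKM in Fb and 2.45 FPKM in Mb there. These levels were below every WT library of the same tissue, of which the lowest were at 2.51 and 3.53 FPKM. In Fb, Klf1 was lower still in DKO_Ex replicate 2 and TKO_Ex replicate 4, at 2.05 and 2.16 FPKM, where Hbb-bs was at only 5.42 and 33.9 FPKM. Otx2 and Cdh11 also stood apart, each in a single library of replicate 2. Otx2, a forebrain and midbrain marker, was at 20.2 FPKM in its Mb library, against 63.3 to 171.0 FPKM in WT Mb. Cdh11 was at 12.7 FPKM in its Fb library. Each of these values was the lowest of all 32. In the Mb library Cdh11 was at 27.2 FPKM, inside the WT Mb range of 17.9 to 28.7 FPKM. Cdh11 is also a targeted gene, and the paper calls this group a Cdh8 and Cdh11 knockout. The part of these differences in the adult beta levels was not tested.

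Between DKO_CD and WT Mb, the log2 fold change of Hbb-bt was 1.63 ± 0.55 (SE, 95% interval 0.41 to 2.85), with an unadjusted p of 0.0138 and an adjusted p of 0.609 in limma. Without replicate 2 it was 1.0 (adjusted p = 0.978, limma). In the Fb it was 1.03 (adjusted p = 0.764, limma) with all libraries and -0.31 (adjusted p = 0.895, limma) without replicate 2, so that a single number decided its direction. With the DKO files grouped by record, both libraries of replicate 2 belonged to DKO_Ex and the values for DKO_CD were -0.81 in Mb and -0.46 in Fb.

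The ratio of Hbb-bt to the embryonic beta genes in DKO_CD Mb was 0.00265, 0.0114 and 0.00270, and in WT Mb it was 0.000551 to 0.00309. Its mean log2 difference was 1.75, a fold of 3.36 (two-sided exact permutation test, p = 0.0357, adjusted p = 0.571). Only replicate 2 lay above every WT Mb library. In WT the ratio differed between the tissues by -0.01 on the log2 scale (fold 0.991, two-sided exact permutation test, adjusted p = 0.986).

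Over the other 30 libraries Hbb-bs and Hbb-bt went together, with a Pearson's r of 0.693 over the log2 levels, and Hbb-bt went with Hbb-y at an r of 0.61. These coefficients describe libraries that share groups and replicate numbers, and no p is given. The ratio of Hbb-bs to Hbb-bt there was 0.824 to 8.50, with a median of 2.91.

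The ratio of Hba-a1 to Hba-a2, singled out after its values were seen, also varied with the library. It was 1.93 to 5.43 in WT Fb and 1.90 to 4.66 in WT Mb, 1.31 to 2.06 and 1.36 to 1.8 in TKO_Ex Fb and Mb, 1.33 to 1.55 and 1.29 to 1.67 in DKO_Ex, and 1.26 to 2.62 and 1.74 to 2.95 in DKO_CD. The 6 DKO_Ex libraries were all below every WT library, and so were the 4 TKO_Ex Mb libraries. Below every WT library were also TKO_Ex Fb replicates 1 and 3 and both libraries of DKO_CD replicate 1. The lowest ratio of all 32, 1.26, was that of DKO_CD Fb replicate 1. How often ratios of other gene pairs separate the groups in this way was not computed. Equal numbers of Fb and Mb gave close values, with a median absolute difference of 0.14 on the log2 scale and a largest of 0.46, whereas the 32 libraries spanned 2.11. Given the 415 shared bases, the part of read assignment in this ratio was not tested. The 300-base promoter windows of the pair share a run of 297 bases.

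**Figure D5:**
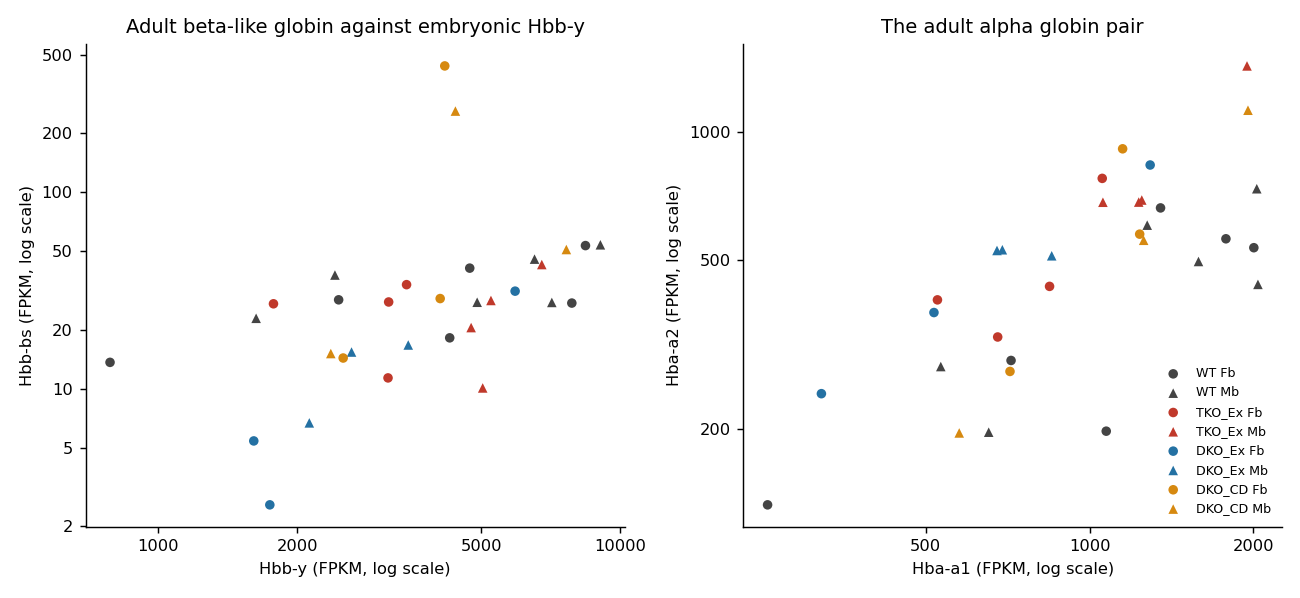
FPKM of Hbb-bs against Hbb-y (left) and of Hba-a2 against Hba-a1 (right), log scales, with a point per library. In the left panel both libraries of DKO_CD replicate 2 lie above the others, at 439.1 and 258.7 FPKM of Hbb-bs. In the right panel the 6 DKO_Ex and the 4 TKO_Ex Mb libraries lie higher in Hba-a2 than WT libraries of similar Hba-a1.

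Across the 32 libraries the log2 levels of the 9 genes went together, with Pearson's r between 0.324 and 0.98 over the 36 pairs and a median of 0.828. Hba-x, Hbb-bh1 and Hbb-y were nearly interchangeable, at r of 0.972 to 0.98. Alas2, Gata1 and Hemgn went with Hbb-y at 0.858 to 0.877. The pairs with Hbb-bt were the loosest, at 0.324 to 0.536, and those with Hba-a2 ran from 0.396 to 0.739. The coefficients describe levels over libraries that share tissues, numbers and depth, and no p is given for them.

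Of 13432 other genes averaging 1 FPKM or more, the 10 whose log2 levels were most like the mean of the members included Ermap, Slc4a1, Sptb, Cited4, Nfe2, Slc39a8, Blvrb, Mgst3 and Acp5, at r of 0.925 to 0.858 over 32 libraries. Slc4a1, the anion exchanger of the red cell membrane, ran from 3.92 to 49.0 FPKM. With the levels centred on each group and tissue, 9 of these 10 were again among the 10 highest. Only 18 genes had r above 0.8 and 41 above 0.7.

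Genes of the red cell membrane and surface were tightly linked to the members. Of 13 listed, all were over a mean of 1 FPKM, 9 had r above 0.7 and the median r was 0.817. Besides Slc4a1, Gypc and Kel were among the highest, with means of 6.43 and 6.05 FPKM and r of 0.821 and 0.599. In all 7 comparisons and 3 interactions 0 genes of this list passed the adjusted threshold in limma, with 2 of 13 at an unadjusted p under 0.05 in WT Mb against Fb, 1 of 11 in TKO_Ex Fb and 1 of 13 in the TKO_Ex interaction, beside 20.9%, 8.66% and 6.5% of all genes in these comparisons.

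The 10 genes of haem synthesis and iron import had a median r of 0.653. Alad and Urod, which act after Alas2, had means of 74.6 and 47.5 FPKM and r of 0.15 and 0.79, and Tfrc, the transferrin receptor, had a mean of 47.2 FPKM and an r of 0.34. These genes serve most cells. The highest library was 1.99 to 2.48 times the lowest for these 3 genes, and 23.0 times for Alas2. None was called in any comparison in limma. Unadjusted p under 0.05 came for 1 of 10 in WT (20.9% of all genes), DKO_Ex Mb (5.46%), TKO_Ex Fb (8.66%) and DKO_CD Fb (8.44%). In DKO_CD Mb it came for 2 of 10, beside 6.69% of all genes.

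Of the 11 listed erythroid transcription factors, 10 had an identifier and 8 a mean over 1 FPKM. Nfe2, Tal1 and Klf1 followed the members at r of 0.891, 0.778 and 0.73, whereas Ldb1 and Lmo2, which other tissues also use, had means of 119.4 and 10.5 FPKM and r of 0.04 and -0.31. None was called in limma, and 1 of 8 tested had an unadjusted p under 0.05 in DKO_Ex Mb, beside 5.46% of all genes. Among the other globins 5 of 7 had an identifier and none was called. Only Hbb-bs had an unadjusted p under 0.05, in DKO_Ex Mb and Fb, beside 5.46% and 7.01% of all genes. Its log2 fold changes were -1.43 (adjusted p = 0.369, limma) and -1.65 (adjusted p = 0.618, limma). In DKO_Ex Mb it was at 16.7, 15.4 and 6.70 FPKM, below every WT Mb library (lowest 22.8 FPKM). In DKO_Ex Fb it was at 31.4, 5.42 and 2.57 FPKM, against 13.6 to 53.5 FPKM in WT Fb. Over all genes 3.04% of such pairs were without overlap. Hbb-bh0 was listed at 0 in 28 libraries and at 2325, 545.5, 521.8 and 296.4 FPKM in the remaining 4. It was left out of the summed globin genes above but not of the total FPKM from which their share was taken.

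Markers of other cells did not follow the members in the same way. The 10 endothelial genes, which line the vessels that hold the blood, had r of -0.24 to 0.24 (median 0.009) and summed levels of 63.0 to 144.0 FPKM. The median r was -0.27 for cranial mesenchyme, -0.33 for surface ectoderm and -0.15 for neuroepithelium. Of the macrophage markers 0 of 10 had a mean over 1 FPKM, their summed level was 0.0667 to 4.90 FPKM and Adgre1 was at 0 in all 32 libraries. The 7 megakaryocyte and platelet markers summed to 2.23 to 39.4 FPKM. Their r ran from -0.01 to 0.50, with a median of 0.31. Pf4, a platelet chemokine that leads them, had the lowest r, -0.01. It was listed at 0 in 10 libraries, both libraries of DKO_CD replicate 2 among them. Between WT Mb and WT Fb the surface ectoderm markers were lower in Mb for 5 of 5 tested (limma, adjusted p under 0.05). The mesenchyme markers were lower for 4 and higher for 1 of 7 at that threshold, beside 8.26% of all genes called in either direction. In the mutants against WT no gene of the endothelial, mesenchyme, surface ectoderm or neuroepithelium lists passed that threshold. The cranial mesenchyme genes had a median log2 fold change of 0.62 in DKO_CD Mb, with 7 of 7 above 0 and 5 of 7 at an unadjusted p under 0.05 (6.69% of all genes), and the surface ectoderm genes one of 0.55, with 4 of 4 above 0 and 2 of 4 at that p. In TKO_Ex Fb the surface ectoderm genes had a median of 0.60, with 6 of 6 above 0 and 4 of 6 at an unadjusted p under 0.05 (8.66% of all genes). The mesenchyme genes went the other way in Fb, with medians of -0.19 in TKO_Ex, -0.32 in DKO_Ex and -0.25 in DKO_CD. Above 0 were 0, 0 and 2 of 7, and 3, 3 and 1 of 7 had an unadjusted p under 0.05, beside 8.66%, 7.01% and 8.44% of all genes. The part of these tissues in the levels of the 9 genes was not tested.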

How the data were processed

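Total RNA was made into directional libraries and sequenced for 101 cycles. Alignment by the authors was to GRCm38 (TopHat2), and the deposited values are FPKM computed by Cufflinks, normalized to transcript length and mapped fragments. HTSeq and DESeq2, also named in the submitters' notes, served the authors' own count tests, and no read counts were used here. Tool versions are not given in the sources used here. In 12 DKO files the column heading and the record name opposite groups; headings were followed, and the grouping by record was an alternative. No column of another sample was used (0).

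Repeated identifiers (65) were summed, and 48218 of 48576 identifiers were found in GENCODE M21. Hbb-b1, Hbb-b2, Zfpm1 and Foxc2 were not analysed here, and a few genes that the naming rule selects are not reported here. Depth was estimated from the steps between low values of 771 genes that have 1 transcript of 4000 bp or longer, and 75.3% to 84.3% of these values came within 0.1 of a whole fragment.

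Fits used limma 3.58.1 in R 4.3.3 (lmFit, eBayes with trend) on log2(FPKM + 1), over genes averaging 1 FPKM or more in the libraries fitted, with only the groups compared and Benjamini-Hochberg adjusted p under 0.05. A fold change on this scale understates that of low genes. Interactions used both tissues. Ratios, with 1 FPKM added to each side, were compared by two-sided exact permutation tests (SciPy 1.17.1, Python 3.11.15), adjusted over 28 tests, and correlations across numbers by permutation with 100000 resamples, or exactly for the 6 WT numbers. The limma and depth steps were tested on simulated data. Named genes were the 9 members, up to 4 genes of highest mean in each erythroid list, and the 10 genes of highest correlation with the members' mean. Exceptions are Hbb-bs, Hbb-bh0, Klf1, Nfe2 and single markers, named where a value turned on them. The members and lists were chosen with earlier results of these data known. Alternatives were pseudocounts of 0.1 and 5 FPKM or none, no filter, median-of-ratios scaling, all 8 groups in 1 fit, the replicate number as a block, the grouping by record and leaving out each library.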

Additional observations from a re-analysis of the deposited data

Results flagged for a closer look

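In 4 of 56 groups of 4 to 6 libraries, 1 library stood apart from the others by more than Dixon's 95% critical value, where chance flags about 1 group in 20. Hba-a2 in TKO_Ex Mb replicate 1 was at 1429 FPKM, with the next library at 691.0 FPKM. The same library also held the highest Hbb-y and Hemgn of its group, at 6758 and 9.84 FPKM.

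The ratio of Hbb-y to Hbb-bh1 in WT Fb replicate 1 was 0.969, with the next at 1.32, and this library had the smallest globin share of all, 0.407%. Its ratio of Hbb-bt to the embryonic beta genes was 0.0028, with the next at 0.00133, and rests on few fragments of Hbb-bt. In WT Mb replicate 2 that ratio was 0.00309, with the next at 0.00123, and Hbb-bt was at 13.7 FPKM. Groups of 3 libraries were not examined in this way, so the adult beta levels of DKO_CD replicate 2 were not part of this search.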

How the results depend on the processing

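No member passed the adjusted threshold in any of 1521 alternative tests, the lowest adjusted p being 0.235 for Alas2 between WT Mb and WT Fb with the replicate block. The direction of some differences changed, among them that of Hbb-bt in DKO_CD Mb, the largest fold change of a member. The sources do not say whether equal numbers pair the samples. The deviations of same-numbered libraries from Fb and Mb correlated at 0.00756 to 0.14, with 4 of 16 over 0.1. Even so, 14 of 16 Fb libraries were closest to the Mb library of their own number. The unblocked fits that hold both tissues may therefore leave out a pairing. In a comparison of a mutant with WT, the block instead joined WT and mutant libraries of equal number, which no source pairs. Those blocked fits therefore cannot show what a pairing of Fb with Mb would change. With the replicate block the log2 fold change of Hbb-y was 0.39 in DKO_CD Mb, 0.29 in DKO_Ex Fb and 0.74 in DKO_CD Fb, the reverse of the unblocked sign, and the calls over all genes fell to 893 in WT (from 1102), 0 in TKO_Ex Mb (from 12), 1 in DKO_Ex Mb (from 12), 1 in DKO_CD Mb (from 5), 0 in TKO_Ex Fb (from 8), 2 in DKO_Ex Fb (from 10) and 4 in DKO_CD Fb (from 5). With the grouping by record, Hbb-bt reversed to -0.81 in DKO_CD Mb and -0.46 in DKO_CD Fb, and its ratio to the embryonic beta genes in DKO_CD Mb to -0.0413. Without a pseudocount that ratio in WT reversed to 0.0233. The cause was not tested.

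Leaving out 1 library gave ranges that crossed 0 for Hbb-y in WT (-0.17 to 0.57), TKO_Ex Mb (-0.0226 to 0.47), DKO_CD Mb (-0.47 to 0.37) and DKO_CD Fb (-0.53 to 0.15), for Hbb-bt in DKO_CD Fb (-0.31 to 1.93) and for the WT log2 ratio differences of Hbb-y to Hbb-bh1 (-0.0707 to 0.0745), Hba-x to the adult alpha genes (-0.0523 to 0.11), Hbb-bt to the embryonic beta genes (-0.27 to 0.26) and alpha-like to beta-like genes (-0.0104 to 0.0729). Hba-a2 in TKO_Ex Mb stayed at 0.71 to 1.14 and Hbb-bt in DKO_CD Mb at 1.0 to 2.32. Over all settings the calls over all genes ran from 870 to 1317 in WT, 0 to 52 in TKO_Ex Mb, 1 to 17 in DKO_Ex Mb, 1 to 12 in DKO_CD Mb, 0 to 32 in TKO_Ex Fb, 2 to 14 in DKO_Ex Fb and 2 to 15 in DKO_CD Fb, and in the interactions from 0 to 5, 0 to 1 and 0 to 5. Depth limits Gata1, Hemgn and Hbb-bt, which rest on few fragments in the poorest libraries, and the spread between libraries of a group limits the globin genes.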
